A study of Homo sapiens with 6 samples.

Results

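The replication-dependent histone genes are the clustered genes whose symbols begin with HIST1H, HIST2H, HIST3H or HIST4H. Of 89 such rows in a count table of 61155 gene symbols, 15 with pseudogene suffixes were left out and 74 were kept. They comprise 55 genes of the HIST1 cluster on chromosome 6, 14 of HIST2 and 4 of HIST3 on chromosome 1, and HIST4H4 on chromosome 12. By protein they divide into 6 genes for linker histone H1, 17 for H2A, 22 for H2B, 14 for H3 and 15 for H4. The GENCODE 29 annotation calls 70 of them protein-coding and the other 4 pseudogenes, namely HIST2H2BA, HIST2H2BC, HIST2H2BD and HIST3H2BA, whose symbols carry no pseudogene suffix.

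MDA-MB-231 is an established line from human breast cancer, of mesenchymal character. Its RNA was sequenced in 3 control libraries and 3 libraries after knockdown of VASP, an actin filament elongation factor. The sample titles call the controls plko and the knockdown shVASP, names of a short hairpin vector. The sample characteristics instead give transient transfection with a negative control siRNA or with VASP siRNA, so which reagent was used cannot be told apart here. Cells of both groups were harvested 48 h after transfection, without further alleles or agents named in the labels, and no label ties a library to a separate culture.

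Nucleosomes wrap DNA around an octamer made of H2A-H2B dimers and an H3-H4 tetramer, and H1 binds the linker DNA. Cells make most of this protein during S phase from the clustered genes, which have no introns in their main form. Their messages end in a conserved stem-loop in place of a poly(A) tail; the stem-loop-binding protein SLBP and the U7 snRNP guide the cut behind it. Some of these genes also give longer, polyadenylated transcripts that run past the stem-loop. The use of a poly(A) selection step is not stated in the labels used here.

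The stem-loop is shown first because it marks where the main message ends. It was searched for by name, as the human consensus for this element, on the sense strand of GENCODE 29 transcripts, where 67 of 58676 genes (0.114%) hold a match. Among the 74 histone genes 35 have a match, and in 25 of these an annotated transcript with the match runs over 100 bases past it. The 16 bases are given 5′ to 3′ as DNA, with the 4-base loop in capitals, for genes whose levels are described below.
HIST2H2BE: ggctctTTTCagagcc
HIST1H2AG: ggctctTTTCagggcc
HIST1H4H: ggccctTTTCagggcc
HIST1H4I: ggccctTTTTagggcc
HIST1H2BD: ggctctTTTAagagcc
Of the annotated transcripts that hold the stem-loop, the furthest reaching continues 1729 bases past it in HIST2H2BE and 1761 in HIST1H2AG. This distance is 1655 bases in HIST1H4H and 212 in HIST1H4I, but 39 in HIST1H2BD. HIST1H2BD has 2 annotated transcripts, and 1 of them holds the stem-loop. HIST1H2BK (381 bases of exon), HIST1H1C (642) and HIST2H2AC (390) have annotated transcripts without a match. Many annotated transcripts without a match are short, as that of HIST1H2BK, and may end before the element. A missing match therefore does not show that a gene lacks the stem-loop.

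Promoters are shown for the 4 genes that fell after knockdown, from 250 bases before to 50 after the transcription start in RefSeq (GRCh38.p14), in which 60 of the 74 genes were matched. Capitals mark 3 motifs on both strands. These are the box CCAAT, the TATA box in its form TATAAA, and the octamer ATTTGCAT, to which the factor OCT1 binds in H2B genes. Where TATAAA matches on opposite strands overlap they run together as TTTATAAA.
HIST2H2BE, chr1:149886633-149886932, minus strand: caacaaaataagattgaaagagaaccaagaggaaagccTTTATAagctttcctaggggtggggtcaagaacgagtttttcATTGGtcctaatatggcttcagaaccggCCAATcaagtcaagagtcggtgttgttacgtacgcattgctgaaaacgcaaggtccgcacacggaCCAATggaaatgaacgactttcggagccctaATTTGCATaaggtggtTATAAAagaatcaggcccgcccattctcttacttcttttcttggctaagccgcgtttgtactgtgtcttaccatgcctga
HIST1H2BK, chr6:27146809-27147108, minus strand: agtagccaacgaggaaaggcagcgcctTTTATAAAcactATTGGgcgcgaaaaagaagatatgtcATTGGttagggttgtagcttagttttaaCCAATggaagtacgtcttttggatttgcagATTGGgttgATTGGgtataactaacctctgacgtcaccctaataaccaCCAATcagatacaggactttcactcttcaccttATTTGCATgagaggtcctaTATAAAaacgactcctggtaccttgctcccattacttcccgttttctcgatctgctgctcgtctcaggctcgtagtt
HIST1H2AG, chr6:27132793-27133092, plus strand: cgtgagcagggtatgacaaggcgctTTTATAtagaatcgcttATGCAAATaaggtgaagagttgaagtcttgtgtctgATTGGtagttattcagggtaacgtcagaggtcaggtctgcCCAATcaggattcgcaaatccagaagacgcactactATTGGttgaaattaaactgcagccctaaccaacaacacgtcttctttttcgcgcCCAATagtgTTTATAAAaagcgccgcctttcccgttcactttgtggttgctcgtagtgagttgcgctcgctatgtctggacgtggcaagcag
HIST1H4H, chr6:26285485-26285784, minus strand: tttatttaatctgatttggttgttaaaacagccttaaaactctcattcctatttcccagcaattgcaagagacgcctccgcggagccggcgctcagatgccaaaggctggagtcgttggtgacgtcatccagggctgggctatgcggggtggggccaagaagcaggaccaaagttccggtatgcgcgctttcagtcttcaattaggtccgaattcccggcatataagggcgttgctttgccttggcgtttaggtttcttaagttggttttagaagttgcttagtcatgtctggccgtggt
The first 3 hold all of these motifs and HIST1H4H holds none of them. TATAAA begins 30 bases before the start in HIST2H2BE, 31 in HIST1H2AG and 27 in HIST1H2BK. Over the histone promoters CCAAT was present in 50 of 60, against 35.7% of 27305 RefSeq promoters of this length, and TATAAA in 39 of 60, against 11.95%. The octamer was found in 25 of 60 histone promoters, against 1.80% of all. It sat in 13 of 17 H2B and 11 of 14 H2A promoters, in 1 of 10 H3 promoters and in no H1 or H4 promoter of the 6 and 13 matched. The H3 promoter with the octamer is that of HIST1H3D, whose window is identical to the window of HIST1H2AD. Windows of head-to-head H2A and H2B genes overlap, so the same site can be counted for both genes. These matches describe letters in the window and not bound sites.

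Each library held 28856610 to 30055503 counts, so the limit that a count of 0 allows (3 counts) lay at 0.0998 to 0.104 counts per 1e6 (CPM). VASP counts were 4544, 5036 and 4708 in controls and 396, 379 and 360 after knockdown, a log2 fold change of -3.69. The line's markers VIM, AXL, CD44 and CAV1 and keratins KRT7, KRT8 and KRT18 stood at 223 to 1890 CPM in controls. KRT7 was lower after knockdown, a call lost with an offset for GC content and length. With that offset 1 of these 7 markers was called higher and 0 lower, and DESeq2 called 2 lower. Among markers of other breast cancer types ESR1, PGR and CDH1 were at 0.631 CPM or less in controls and ERBB2 at 107 CPM, with ERBB2 lower after knockdown; that call was lost by DESeq2, with no filter on low counts, with the offset and in 4 of the 6 fits that each left out a library (controls 1 and 2, knockdown 2 and 3). Fibroblast markers were not called: DCN and LUM were at 0 in every library, COL1A2 at 0 in the controls, and the 5 summed to 6.15 to 7.45 CPM in controls and 6.60 to 7.20 CPM after knockdown. The 4 leukocyte markers summed to 2.28 to 3.07 and 1.498 to 2.90 CPM, with none called. Of 3 endothelial markers PECAM1 was lower (2.82 to 2.05 CPM; not by DESeq2 or without control 1 or knockdown 3), and their sum ran from 2.696 to 3.43 CPM in controls and from 1.91 to 2.44 CPM after knockdown. Their part in the histone values was not tested.

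A few genes held most of the counts of the clusters. All 74 genes together had 25015 counts in the 6 libraries, of which HIST1H2BK held 18.6%. HIST1H2BK, HIST1H2AC, HIST1H4I, HIST2H2BE, HIST1H1C and HIST1H2BD together held 79.4%. There were 23 genes at 0 in every library, and 23 genes passed the filter on low counts and were tested. Over all 61155 symbols 26345 were at 0 in every library and 16633 were tested. The 51 histone genes that did not pass held 442 counts, or 1.77% of the total. Median exon length was 1294 bases in the tested genes and 488 bases in the rest, and a stem-loop followed by over 100 bases was annotated in 14 of the 23 and 11 of the 51.

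The HIST1 genes lay in blocks of counted and almost uncounted genes along chromosome 6. From HIST1H4D to HIST1H2BI, 15 consecutive members over 84592 bases (GRCh38 chr6:26188765-26273356) had 3 counts in all 6 libraries together. Another 6 symbols inside that stretch had 0. Its flanking members were well above this, HIST1H2BE with 117 counts and HIST1H4H with 467. Whether the reference used for alignment holds this stretch a second time is not stated in the labels or the header, and fragments with several alignments are not counted at the defaults. The near-zero counts therefore do not show that these genes lacked RNA. A second run of 5 members, from HIST1H2AK to HIST1H4L (chr6:27837947-27873510), had 0 counts between HIST1H2BN with 238 and HIST1H3J with 20. The exons of HIST1H2AK and HIST1H2AL overlap those of HIST1H2BN, and at the counter's defaults fragments touching both symbols are not counted. These runs were picked out after their values were seen. HIST1H2AA and HIST1H2BA, known as testis histone genes, were at 0 as well.

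**Figure D1:**
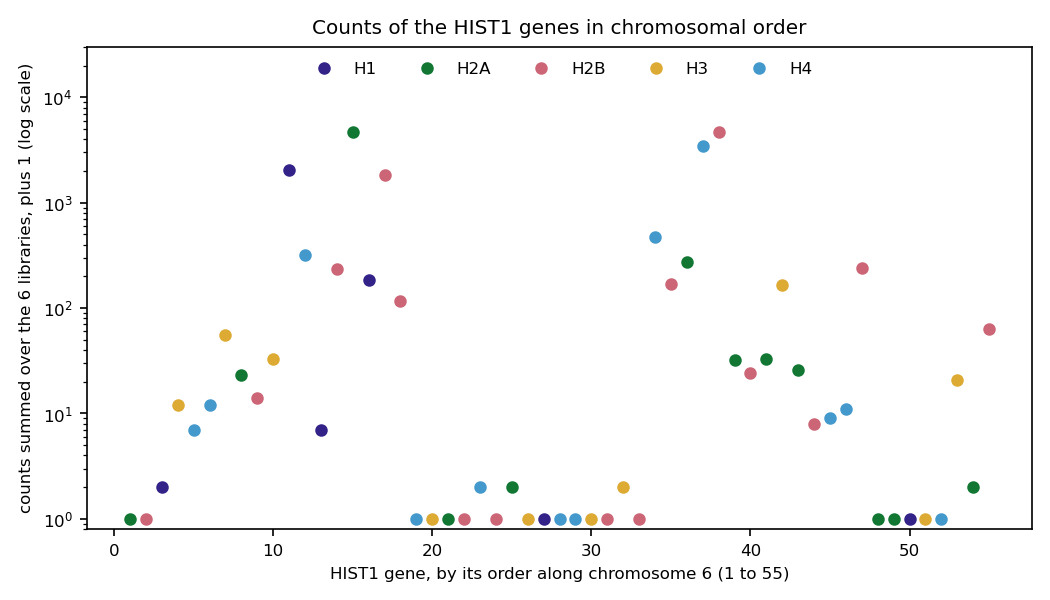
Counts of each of the 55 HIST1 genes, summed over the 6 libraries plus 1 (vertical axis, log scale), against the gene's order along chromosome 6 (horizontal axis), coloured by histone class. The run of 15 genes from HIST1H4D to HIST1H2BI holds 3 counts in all, between HIST1H2BE at 117 and HIST1H4H at 467; low counts can also arise where fragments align to several places and are not counted.

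Some low genes have copies or a second listed position. The 4 HIST3 genes, listed both on chromosome 1 and on a patch sequence, were at 0 in every library. HIST2H3C, HIST2H3A, HIST2H2AA3, HIST2H2AA4 and HIST2H4B share 96.8% to 100% of their 100-base words with other genes and had 4 to 22 counts each. Fragments with several alignments are not counted at the defaults, so these counts are uncertain.

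Among the genes that did not pass the filter the highest totals were 55 for HIST1H3B, 33 each for HIST2H3D and HIST2H2AB, and 32 each for HIST1H3C and HIST1H2AI. HIST1H3B had 8, 11 and 9 counts in controls and 9, 8 and 10 after knockdown. HIST1H3C had 9, 4 and 8 against 2, 5 and 4. Among the 28 genes with some counts, the control sum was above the knockdown sum in 15, below it in 9 and equal in 4. HIST1H2BL, with 0, 2 and 2 counts against 5, 10 and 4, was called higher when no filter on low counts was used, and no other of these genes was called in that fit.

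After VASP knockdown 4 of the 23 tested histone genes fell and none rose, at an adjusted p under 0.05 in edgeR's quasi-likelihood test over all genes. The 4 were the H2B genes HIST2H2BE and HIST1H2BK, the H2A gene HIST1H2AG and the H4 gene HIST1H4H, lower by 1.29- to 1.64-fold. Over all 16633 genes tested 18.3% were called lower and 18.9% higher, so the share of histone genes called lower (17.4%) was close to the background. None of the 23 was called higher by edgeR, and none above 0 had an unadjusted p under 0.05. The 23 log2 fold changes had a median of -0.26, against -0.01 for all genes, and ranged from -0.71 to 0.23. They lay below 0 in 20 of 23 (87.0%), against 51.3% of all genes. The numbers called higher and lower were 0 and 4 with RLE factors (all genes 19.2% and 18.1%), and 0 and 5 with an offset for GC content and length (17.3% and 12.4%). They were 0 and 3 of 19 by DESeq2 (20.5% and 16%), and 1 and 3 of 51 with no filter on low counts (9.82% and 7.71%). A filter of 1 CPM in 3 libraries gave 0 and 5 of 18 (22.7% and 21.4%), and a 1.2-fold null gave 0 and 1 (1.95% and 3.78%). In bulk RNA, fewer cells in the phase that expresses these genes and less RNA per cell cannot be told apart.

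**Figure D2:**
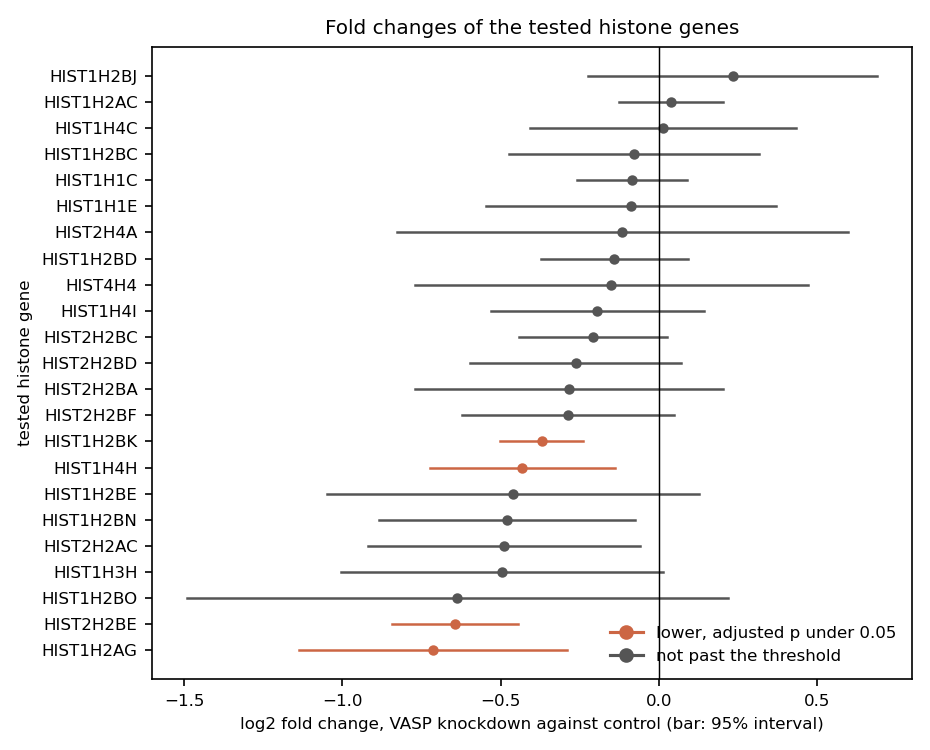
Log2 fold change of each of the 23 tested histone genes, VASP knockdown against control (horizontal axis), with bars for the 95% interval of the fit, one gene per line. The 4 genes past the threshold (coloured) lie between -0.71 and -0.37, and 3 genes lie above 0, the highest HIST1H2BJ at 0.23.

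H2B genes gave the largest part of the counts, and both H2B genes that fell were among the most abundant members. HIST2H2BE (H2BC21 in current nomenclature; ENSG00000184678, GRCh38 chr1:149884459-149886652, minus strand, 2194 bases of exon) stood at 25.9, 22.4 and 18.7 CPM in controls and at 14.2, 13.8 and 14.9 CPM after knockdown. Controls varied widely, but each lay above all 3 knockdown libraries. The gene fell from 22.3 ± 3.62 to 14.3 ± 0.587 CPM (SD, n = 3), 1.56-fold (log2 fold change -0.64, SE 0.09, edgeR adjusted p = 3.8e-05). Its annotated transcript runs well past the stem-loop printed for it.

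HIST1H2BK (H2BC12; ENSG00000197903, chr6:27146418-27146798, minus strand) read 30.6, 28.9 and 29.8 CPM in the controls and 24.1, 23.6 and 21.4 CPM after knockdown. Both groups were tight and did not overlap. It fell from 29.8 ± 0.871 to 23.0 ± 1.40 CPM (SD, n = 3), 1.29-fold (log2 fold change -0.37, SE 0.06, edgeR adjusted p = 8.1e-05). Its annotated exon has a GC content of 61.2%, and across 16124 genes log2 fold change and GC content had a Spearman correlation of -0.42 in these libraries. With an offset for GC content and length its change was -0.16 (edgeR adjusted p = 0.055) and no longer passed. Of its 100-base words 28.4% are shared with H2BFS, and fragments that align to both are not counted at the defaults.

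The other 10 tested H2B genes did not pass. HIST1H2BN was the nearest, with 1.34, 1.76 and 1.62 CPM in the controls and 1.01, 1.22 and 1.16 CPM after knockdown (log2 fold change -0.48, edgeR adjusted p = 0.057), groups that did not overlap. With the GC and length offset it passed (-0.59, edgeR adjusted p = 0.025). HIST2H2BD, a pseudogene transcript, also had groups apart, at 2.06, 2.34 and 2.11 CPM against 1.73, 1.93 and 1.77 CPM (-0.26, edgeR adjusted p = 0.21). Its exons overlap those of HIST2H2BC, so the pair share fragments that are not counted. HIST2H2BC went from 5.85 ± 0.0686 to 5.07 ± 0.678 CPM (SD, n = 3), with knockdown library 3, at 5.86 CPM, inside the control range. Its log2 fold change was -0.21 (edgeR adjusted p = 0.16), and -0.30 with the offset, where it passed (edgeR adjusted p = 0.042).

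HIST1H2BD, the other abundant H2B gene, had 12.3, 10.7 and 9.71 CPM in the controls and 9.16, 11.8 and 8.72 CPM after knockdown. The groups overlapped, with a log2 fold change of -0.14 (95% interval -0.37 to 0.09). HIST2H2BF (-0.29), HIST2H2BA (-0.28), HIST1H2BE (-0.46), HIST1H2BO (-0.64) and HIST1H2BC (-0.08) also lay below 0 without passing, and HIST1H2BJ (0.23) lay above it. Wide intervals, such as -1.49 to 0.22 for HIST1H2BO at 0.436 CPM, leave room for changes as large as that of HIST2H2BE. HIST2H2BF shares exons with FCGR1A and HIST1H2BE with AL353759.1, and 41.7% of the 100-base words of HIST2H2BA recur elsewhere.

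The most abundant H2A gene was not called. HIST1H2AC had 28.9, 26.4 and 22.5 CPM in the controls and 28.4, 26.6 and 24.8 CPM after knockdown. The knockdown range lay within the control range, and the log2 fold change was 0.04 (95% interval -0.13 to 0.20). HIST1H2AG (H2AC11; ENSG00000196787, chr6:27133042-27135291, plus strand, 2250 bases of exon) read 2.30, 1.34 and 2.07 CPM against 1.11, 1.15 and 1.23 CPM, with control 2 close to the knockdown libraries. It fell 1.64-fold (log2 fold change -0.71, SE 0.20, edgeR adjusted p = 0.0082). Without control library 1 its change was -0.56 and its edgeR adjusted p 0.065. HIST2H2AC read 1.23, 1.79 and 1.59 CPM against 0.946, 1.32 and 1.02 CPM, overlapping groups (-0.49, edgeR adjusted p = 0.068). It shares 17.2% of its 100-base words with HIST2H2AA3 and HIST2H2AA4.

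H3 and H4 form the tetramer at the centre of the nucleosome. Only 1 of the 14 H3 genes could be tested, HIST1H3H, with 1.23, 1.28 and 0.795 CPM against 0.978, 0.677 and 0.681 CPM (-0.49, edgeR adjusted p = 0.12). Its groups overlapped through control library 3. Among 5 tested H4 genes HIST1H4H (H4C8; ENSG00000158406, chr6:26277609-26285638, minus strand, 2163 bases of exon) had 2.98, 3.07 and 3.08 CPM in the controls and 2.18, 2.33 and 2.25 CPM after knockdown. Each group lay within a narrow band. The gene fell 1.35-fold (log2 fold change -0.43, SE 0.14, edgeR adjusted p = 0.019), and DESeq2 did not call it (adjusted p = 0.099). Its call was also lost with no filter on low counts (edgeR adjusted p = 0.051) and without control library 2 (0.052), knockdown library 1 (0.065) or knockdown library 3 (0.053).

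HIST1H4I carried most H4 counts and did not pass. It read 25.1, 19.9 and 18.0 CPM against 17.6, 21.5 and 15.97 CPM, a log2 fold change of -0.19 (95% interval -0.53 to 0.14). Control library 1 was the highest and the other libraries interleaved. HIST1H4C (0.01), HIST2H4A (-0.12) and HIST4H4 (-0.15) lay between 0.414 and 1.80 CPM in group means with overlapping groups. For HIST2H4A, 94.9% of the 100-base words recur in other genes, mainly HIST2H4B.

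Neither linker histone gene tested was called. HIST1H1C had 12.7, 11.9 and 10.7 CPM against 11.1, 11.2 and 11.1 CPM (log2 fold change -0.08, 95% interval -0.26 to 0.09). The knockdown libraries sat inside the control range. HIST1H1E went from 1.07 ± 0.0887 to 1.00 ± 0.210 CPM (SD, n = 3; -0.09), and the other 4 H1 genes were not tested.

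**Figure D3:**
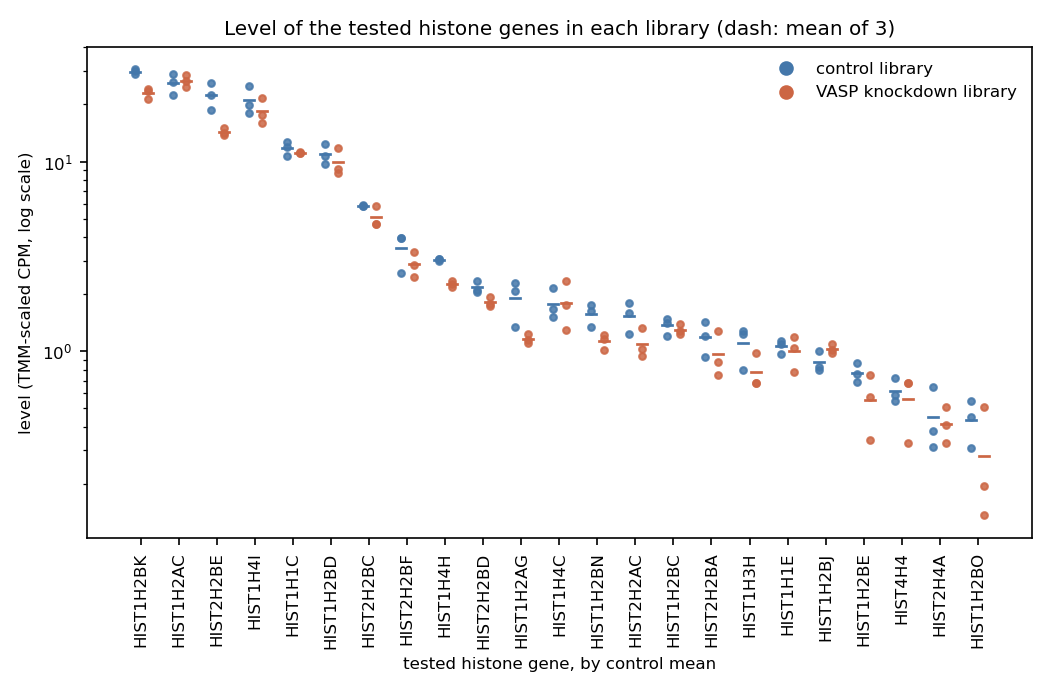
Level of each of the 23 tested histone genes in TMM-scaled CPM (vertical axis, log scale) in each control and knockdown library (points, with dashes for the mean of 3), ordered by control mean. HIST2H2BE is at 18.7 CPM or more in controls and 14.9 CPM or less after knockdown, whereas HIST1H2AC overlaps between groups.

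Per kilobase of annotated exon the order of levels in the controls was HIST1H2BK (78.2 CPM per kb), HIST1H1C (18.4), HIST1H4I (16.2), HIST1H2AC (15.5), HIST1H2BD (12.5) and HIST2H2BE (10.2). The value of HIST1H2BK rests on an exon of 381 bases, against 2194 for HIST2H2BE, so lengths of annotation enter this order. HIST1H1C, HIST1H4I and HIST1H2AC stood within 18.4 to 15.5 CPM per kb, nearer to each other than the spread of HIST1H4I, whose control libraries ran from 18.0 to 25.1 CPM before scaling by length.

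Summed over all 74 genes the histone level was 168, 152 and 141 CPM in controls and 130, 137 and 123 CPM after knockdown. Every knockdown library lay below every control library, with means of 153.6 ± 13.6 and 129.8 ± 6.98 CPM (SD, n = 3). Without HIST1H2BK the sums went from 123.8 ± 13.2 to 106.7 ± 5.95 CPM (SD, n = 3), and the groups then overlapped. These sums weigh each gene by its counts and carry no test.

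By class, the summed H2B level went from 80.9 ± 5.73 to 62.5 ± 2.55 CPM (SD, n = 3) and the groups did not overlap. Most of that difference came from HIST2H2BE (22.3 to 14.3 CPM) and HIST1H2BK (29.8 to 23.0 CPM). H2A lay between 27.2 and 33.3 CPM in the controls and between 28.1 and 31.3 CPM after knockdown. H4 went from 27.3 ± 3.94 to 23.6 ± 3.49 CPM and H1 from 12.9 ± 1.10 to 12.1 ± 0.142 CPM (SD, n = 3), both with overlap. H3 summed to only 2.05 ± 0.105 CPM in the controls and 1.64 ± 0.114 CPM after knockdown (SD, n = 3), without overlap. By cluster, HIST2 went from 37.8 ± 4.12 to 27.2 ± 0.663 CPM (SD, n = 3), without overlap, and HIST2H2BE makes up most of it. HIST1 went from 115.2 ± 9.74 to 102.0 ± 7.20 CPM (SD, n = 3), with overlap.

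**Figure D4:**
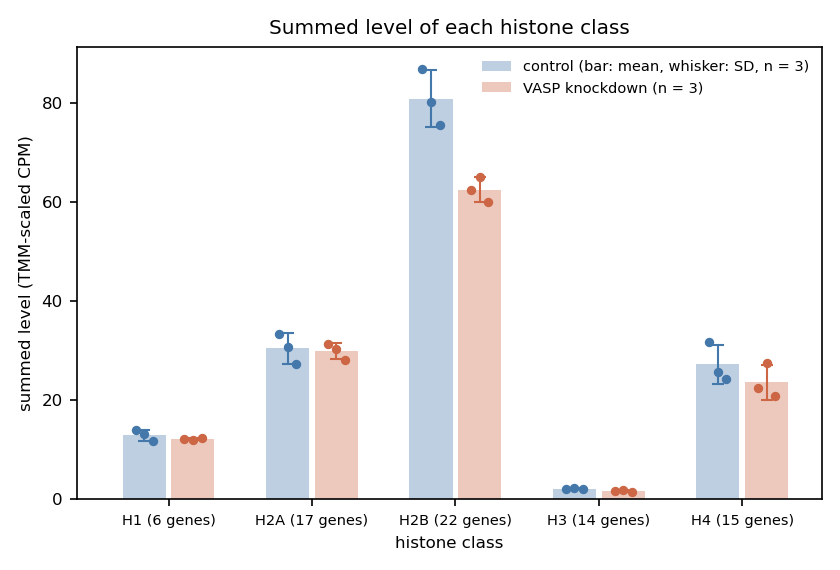
Summed TMM-scaled CPM of the genes of each histone class (vertical axis) in control and knockdown libraries, with bars for the mean, whiskers for the SD (n = 3) and points for the libraries. The H2B groups do not overlap (75.6 to 87.0 against 60.1 to 65.1 CPM), and the H2A groups do. HIST2H2BE and HIST1H2BK give most of the H2B difference.

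Counted by overlap, 6 of the 23 tested genes (26.1%) had every knockdown library below every control library and none the reverse, beside 23.5% and 24.1% of all genes tested. The 6 were the 4 called genes with HIST1H2BN and HIST2H2BD. The share below was near the background.

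H2A and H2B genes often stand head to head and share the DNA between their starts. There are 12 pairs with starts within 500 bases of each other, 11 of them an H2A with an H2B gene. The remaining pair, HIST1H3D with HIST1H2BF, has the same promoter window as HIST1H2AD with HIST1H2BF and is not a separate stretch of DNA. In 3 pairs both genes were tested. HIST2H2BE and HIST2H2AC, 236 bases apart, had log2 fold changes of -0.64 and -0.49. HIST1H2BC and HIST1H2AC, 246 bases apart, had -0.08 and 0.04, with neither called. With the GC and length offset HIST2H2BE was at -0.62 and HIST2H2AC at -0.25. The 95% interval of HIST2H2AC without the offset was wide, from -0.92 to -0.06. That of HIST1H2BC ran from -0.47 to 0.32. Without the offset the estimates within each of these pairs lay close, but such intervals cannot show that the changes were alike.

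In the last tested pair, HIST1H2BJ and HIST1H2AG, 248 bases apart, the log2 fold changes were 0.23 and -0.71. Each control library held 2.79, 1.70 and 2.07 counts of HIST1H2AG per count of HIST1H2BJ, and each knockdown library 1.10, 1.17 and 1.13. The ratio was lower in every knockdown library, on totals of 270 and 168 counts. This pair was singled out after its values were seen and the difference was not tested. In the sequence printed for HIST1H2AG the octamer lies 208 bases before its own start, and seen from HIST1H2BJ it lies 47 bases before the start.

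Other genes of histone supply were read from lists of the same fit. Replacement histones are typically made throughout the cell cycle from polyadenylated messages, which need not hold for every gene listed. The list summed to 2298.8 ± 34.7 CPM in the controls and 2374.2 ± 54.9 CPM after knockdown (SD, n = 3), with overlap. Of 12 tested 2 rose (16.7%) and 3 fell (25%), near the 18.9% and 18.3% called over all genes, with a median log2 fold change of 0.06. The 2 higher became 1 without control 1 or 2 or knockdown 1 or 2. H2AFJ, an H2A variant with polyadenylated message, fell from 25.6 ± 2.07 to 13.9 ± 1.15 CPM (SD, n = 3; -0.88, edgeR adjusted p = 7.6e-09). H2AFX, the variant phosphorylated at DNA breaks, fell from 174 ± 13.4 to 122 ± 0.506 CPM (SD, n = 3; -0.51, edgeR adjusted p = 9.4e-08). Its GC content is 66.4%, and with the GC and length offset its change was -0.23 (adjusted p = 0.0021). H3F3B, a source of H3.3, rose from 410.2 ± 1.27 to 486.7 ± 11.2 CPM (SD, n = 3; 0.25, edgeR adjusted p = 0.00023). The linker variant H1FX fell (-0.46, edgeR adjusted p = 0.0005), with a GC content of 68.6% and a change of -0.13 under the GC and length offset (adjusted p = 0.085).

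In a list of genes for making and trimming histone messages, calls of higher were more frequent than calls of lower. The list is not limited to factors specific to histone messages, so its calls are not particular to them. Of 38 tested genes for transcription and end processing 19 rose and 3 (SNRPB, LSM7 and UPF1) fell, with a median log2 fold change of 0.15, beside 18.9% and 18.3% called over all genes. With the GC and length offset 14 and 0 were called, beside 17.3% and 12.4%. Without control 2 the counts were 12 and 1, and against a 1.2-fold null 1 and 0. NPAT, the cyclin E-CDK2 substrate that activates histone genes, read 29.5, 28.7 and 28.7 CPM in the controls and 40.4, 39.5 and 46.0 CPM after knockdown (log2 fold change 0.53, edgeR adjusted p = 6.7e-07). The groups were well apart. SNRPE, a component of the Sm ring, rose by 0.36, and LSM6 and LSM5, of the Lsm ring that binds RNA ends, by 0.44 and 0.31 on the log2 scale. SLBP, chosen outside the naming rule because it binds the stem-loop, rose from 117 ± 4.73 to 136 ± 2.74 CPM (SD, n = 3; 0.22, edgeR adjusted p = 0.00079).

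Histone chaperones, which carry the proteins to and from DNA, were mixed. Of 18 tested 10 rose and 5 fell (median log2 fold change 0.14), beside 18.9% and 18.3% over all genes, and with the GC and length offset 5 rose and 2 fell, beside 17.3% and 12.4%. Higher and lower were 5 and 3 without control 1, 5 and 4 without control 2, 7 and 3 without knockdown 1, 4 and 5 without knockdown 3, and 0 and 0 against a 1.2-fold null. SUPT16H, a subunit of the FACT complex, rose by 0.24, and HJURP, the CENP-A chaperone, by 0.23. NAP1L1, an H2A-H2B chaperone, rose by 0.21, and CABIN1, a subunit of the HIRA complex, fell by 0.25 on the log2 scale; neither passed with the offset (adjusted p = 0.076 and 0.11). Of the 2 chaperones not tested, IPO4 was listed at 0 in every library and ASF1B at a control mean of 0.0115 CPM. Fragments with several alignments or touching several symbols are not counted at the defaults, so these values do not show that RNA was lacking.

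Genes of S phase entry and replication rose in 13 of 25 tested and fell in none, with a median log2 fold change of 0.17, beside 18.9% and 18.3% over all genes. With the offset 14 and 0 were called (17.3% and 12.4% of all genes), and against a 1.2-fold null 4 and 0. Leaving out control 1 gave 12 higher and 1 lower, and leaving out each other library gave 11 to 17 higher and 0 lower. CCNE2, a cyclin E, went from 9.84, 11.2 and 12.7 to 18.0, 17.6 and 19.1 CPM (0.70, edgeR adjusted p = 1.2e-06), and CCNE1 rose by 0.44. CLSPN, a checkpoint mediator at forks, rose by 0.45 and MCM10, a replication initiation factor, by 0.42. Their summed level ran from 1956 to 2260 CPM in the controls and from 2254 to 2382 CPM after knockdown, with overlap. These values stand beside a summed histone level that was lower in the knockdown libraries, with groups that overlapped without HIST1H2BK. The part of these genes in the histone result was not tested.

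Other RNAs that lack a poly(A) tail had few counts. Fragments with several alignments are not counted at the defaults, so few counts do not show low levels of RNAs with copies. Of 20 listed, 3 were tested, and the 20 summed to 5.77 to 6.51 CPM in the controls and 7.46 to 8.49 CPM after knockdown. SNORD3A, the U3 small nucleolar RNA, rose from 3.25 ± 0.796 to 5.39 ± 0.506 CPM (SD, n = 3; 0.73, edgeR adjusted p = 0.00042). RMRP, the RNA of RNase MRP, fell from 0.769 ± 0.0745 to 0.444 ± 0.183 CPM (SD, n = 3; -0.78, edgeR adjusted p = 0.044), and was not called with the GC and length offset (adjusted p = 0.19) or in 5 of the 6 fits that each left out a library (all but knockdown 1). The summed groups did not overlap, with the knockdown libraries above the controls. Mean sums were 6.19 CPM in controls and 8.10 CPM after knockdown, so the rise of SNORD3A alone was larger than that of the sum.

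**Figure D5:**
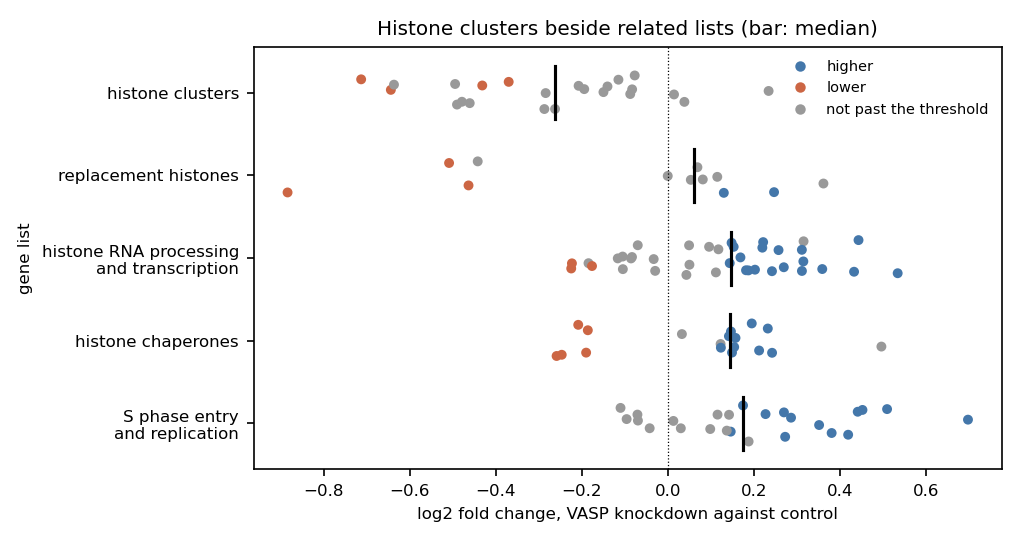
Log2 fold change of each tested gene (points, horizontal axis, coloured by call) in the histone clusters and in 4 related lists, with bars for list medians. The histone median is -0.26, and those of the other lists are 0.06 (replacement histones), 0.15, 0.14 and 0.17.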

How the data were processed

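A single table deposited by the authors gives unnormalized counts of fragments for each gene symbol in 6 libraries, with exon lengths in bases. Per the file headers, featureCounts 1.6.4 counted paired reads over exons of GENCODE 32, patches and alternate sequences included, on GRCh38, with no strand, multi-mapping or multi-overlap option. The submitters' processing notes list Trim Galore 0.6.4 and STAR 2.7.1a. All 3 control columns are named after 1 control sample plus a number, so they cannot be matched to the 3 control samples. Their numbers here follow the table and serve as names. Since no source says that the cultures were separate, the p-values cover the spread of these libraries alone, possibly a technical one.

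Genes passing filterByExpr (16633) were scaled by TMM and tested with edgeR 4.0.16 (two-sided quasi-likelihood test, robust, group as sole term) in R 4.3.3, with Benjamini-Hochberg adjustment over all genes tested and a threshold of 0.05. The biological coefficient of variation was 4.81%. CPM are TMM-scaled. The script was tested on simulated data. Intervals are 95% intervals of the fit, and floors cover counting error only. The members and lists were chosen with earlier results of these data known. Named genes are VASP, every tested histone gene, the 5 untested with most counts, and up to 4 genes of smallest p past the threshold in each list; exceptions are stated. Alternatives were DESeq2 1.42.0, RLE factors, other filters, a 1.2-fold null, each library left out, and a per-library spline offset (5 degrees of freedom) on GC content and length, with GC content for 96.9% of tested genes and for all 23 tested histone genes from GENCODE 29.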

Additional observations from a re-analysis of the deposited data

How the results depend on the processing

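No paired analysis was possible because all control columns are named after 1 control sample and cannot be tied to numbered control samples. The count of 4 histone genes lower ran from 3 to 6 when each library was left out, and was 3 to 5 under the other alternatives, except against a null of 1.2-fold, where it was 1 (HIST2H2BE, called in each setting). Left out, control 3 and knockdown 2 each gave 6 and kept the main 4. The offset kept 3 of the 4. The count higher was 0 throughout, except 1 (HIST1H2BL, with 0, 2 and 2 against 5, 10 and 4 counts) with no filter on low counts. The difference of summed levels was -23.8 CPM, -21.4 from raw totals, -17.1 without HIST1H2BK, and -30.2 to -16.7 when each library was left out. Over all genes 3148 were higher and 3039 lower, with 1995 lower under the offset and 324 and 629 against the 1.2-fold null. Changes of sign occurred only among genes not called in either setting. With each library left out, log2 fold changes ran from -0.32 to 0.26 for HIST2H4A, -0.21 to 0.20 for HIST1H4C, -0.053 to 0.12 for HIST1H2AC, -0.22 to 0.075 for HIST1H1E and -0.31 to 0.13 for HIST4H4. With the offset HIST1H1C was at 0.057, HIST1H2AC at -0.027 and HIST1H1E at 0.085. The cause was not tested. At these depths 51 of the 74 genes had too few counts to test; depth, uncounted fragments of copies or overlaps, and low expression were not told apart.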
